A study of Mus musculus with 24 samples.

Results

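The Fanconi anemia, homologous recombination, strand-break and mismatch repair genes were read in splenic Ly6Chi and Ly6Clow monocytes of 3 mouse genotypes, WT, Slc29a3-/- and Slc29a3-/- Tlr7-/-. The genes were chosen by name alone, as every row whose symbol begins with Fanc plus a letter or with Rad5, together with Brca1, Brca2, Brip1, Palb2, Blm, Exo1 and the numbered Xrcc, Lig, Msh and Mlh genes of strand-break and mismatch repair. The rule found 43 genes among the 23930 amplicons of the table, and all 43 matched a RefSeq gene on GRCm38.p6. The rule used no expression value, but these genes were chosen for study with earlier results of these data known.

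The study asked whether the lysosomal nucleoside transporter SLC29A3 restrains TLR7-driven monocyte accumulation, and its RNA-seq set held 24 libraries in 6 groups (*n* = 4 each), made from untreated mice directly after sorting. CD11b+ NK1.1- Ly6G- SiglecF- spleen cells were split into Ly6Chi cells, low in the IgG receptor Fcgr4, and Ly6Clow cells, positive for Fcgr4; the labels call them macrophages and the study calls them monocytes. All mice were on a C57BL/6 background. WT mice were bought, and both mutant genotypes were whole-body CRISPR/Cas9 alleles: an insertion with a stop codon in Slc29a3, carried alone or together with a disrupted Tlr7, so both mutant groups shared the Slc29a3 mutation. The ages of these mice were not given in the sources used here.

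Repair of a DNA interstrand crosslink begins when the Fanconi core complex attaches ubiquitin to the FANCI-FANCD2 pair, which calls in nucleases and hands the break to homologous recombination. There BRCA1, PALB2 and BRCA2 prepare resected single strands for strand exchange, which RAD54-family motors complete. These proteins work mostly in S and G2 phase, when a sister chromatid is at hand, and many of their genes are known E2F targets. End joining by the Ku proteins, XRCC4 and LIG4 works through the whole cell cycle, and mismatch repair by the MSH and MLH proteins corrects replication errors.

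Because many of these genes are known E2F targets, their RefSeq promoter windows were read for the E2F words TTTCCCGC, TTTGGCGC, TTTCGCGC and TTTGCCGC on both strands. A window on GRCm38.p6, from 250 bases before to 50 after the start, was given for 33 of the 43 genes. An E2F word was found in 8 of these 33 genes (24.2%), against 2.6% of all 27025 genes with a window. CCAAT was present in 57.6% of the repair genes and 41.1% of all genes, and TTTGAA, the core of the cell-cycle homology region, in 6.06% and 20.2%. The 250 upstream bases of 4 genes that hold a word there are printed 5′ to 3′ on the gene's own strand, with the word in capitals. They are shown because they carry the same kind of word while the genes responded differently: Fancg was called higher in Ly6Chi Slc29a3-/- monocytes than in both other genotypes, Brca2 than in Slc29a3-/- Tlr7-/- alone, and Msh3 and Xrcc6 than in neither. Msh3 holds 2 words that overlap, 1 on each strand. By the gene coordinates given below, the windows of Fancg, Brca2 and Xrcc6 lie inside the gene. For these genes the start used was therefore not the outer end of the gene.
Fancg, chr4:43010302-43010551, minus strand: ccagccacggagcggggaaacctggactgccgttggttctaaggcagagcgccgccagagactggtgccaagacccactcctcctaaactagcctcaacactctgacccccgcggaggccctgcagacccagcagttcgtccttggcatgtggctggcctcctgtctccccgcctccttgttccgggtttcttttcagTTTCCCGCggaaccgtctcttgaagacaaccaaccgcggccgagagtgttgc
Brca2, chr5:150522371-150522620, plus strand: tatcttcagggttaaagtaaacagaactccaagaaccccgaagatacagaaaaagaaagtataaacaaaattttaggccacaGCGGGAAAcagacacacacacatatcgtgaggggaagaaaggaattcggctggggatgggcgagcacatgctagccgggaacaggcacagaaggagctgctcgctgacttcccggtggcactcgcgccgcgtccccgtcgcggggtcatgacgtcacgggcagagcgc
Msh3, chr13:92355004-92355253, minus strand: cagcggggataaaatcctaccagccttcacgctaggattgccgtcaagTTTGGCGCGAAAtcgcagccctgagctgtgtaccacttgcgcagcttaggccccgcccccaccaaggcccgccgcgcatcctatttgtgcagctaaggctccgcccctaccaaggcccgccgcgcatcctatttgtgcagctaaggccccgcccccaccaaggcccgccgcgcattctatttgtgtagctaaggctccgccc
Xrcc6, chr15:82016119-82016368, plus strand: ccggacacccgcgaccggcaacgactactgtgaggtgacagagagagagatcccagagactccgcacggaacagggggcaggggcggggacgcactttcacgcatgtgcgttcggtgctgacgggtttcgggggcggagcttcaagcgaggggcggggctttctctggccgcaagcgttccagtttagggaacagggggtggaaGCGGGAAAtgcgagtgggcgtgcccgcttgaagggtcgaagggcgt
A word in these windows is a match of letters and was not tested as a bound site. Of the genes called higher in Ly6Chi Slc29a3-/- than WT monocytes, 14 had a window, and 4 of these (28.6%) held an E2F word. Of those tested and not called higher, 16 had a window and 4 (25%) held a word.

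Values are RPM, the reads of 1 amplicon per gene scaled to the mapped total of the library. The low values of each library were whole multiples of 1 step, which put the depth at 12311031 to 14572210 reads per library, and 3 reads corresponded to 0.206 to 0.244 RPM. Amplicons differ in yield, so levels are compared between samples of 1 gene and not between genes. The Ly6Chi markers Ccr2 and F13a1 were called higher in Ly6Chi than Ly6Clow libraries in all 3 genotypes, and Fcgr4, Nr4a1, Itgal, Ace and Treml4 were lower in each. The Ly6Clow marker Cx3cr1 separated the subsets less clearly. Its means (± SD) in Ly6Chi and Ly6Clow were 95.1 ± 34.6 and 145 ± 101 RPM in WT and 93.3 ± 40.3 and 196 ± 15.5 RPM in Slc29a3-/- libraries. In Slc29a3-/- Tlr7-/- libraries they were 130 ± 55.3 and 138 ± 78.9 RPM. Ly6c2 and Chil3 were not among the amplicons. The Slc29a3 amplicon read 127 to 173 RPM in Ly6Chi Slc29a3-/- libraries against 163 to 225 RPM in WT, and the Tlr7 amplicon read 259 to 345 RPM in Ly6Chi Slc29a3-/- Tlr7-/- libraries against 210 to 336 RPM in WT, so neither amplicon checks the genotype labels. WT replicates 1 to 3 of both subsets carried barcodes 11 to 16 and were deeper (14237263 to 14572210 reads) than all other libraries (12311031 to 13048385 reads). WT replicate 4 stood apart from them: over all genes its smallest log2 distance to replicates 1 to 3 was 63.7 in Ly6Chi, where those 3 lay within 24.3 of each other, and 67.4 against 44.4 in Ly6Clow. Whether the WT libraries with barcodes 11 to 16 were a separate run cannot be told from the labels, and counts with WT replicate 4 standing alone for WT are given below.

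In Ly6Chi monocytes, a share of the recombination and Fanconi genes was higher in Slc29a3-/- than in WT mice, and the rest did not pass the test or, in 1 case, was lower. Of the 40 genes with at least 1 RPM in 4 or more of the 12 libraries, 18 were called higher and 1, Fance, was called lower, against 8.15% higher and 14.3% lower among all 10561 genes tested. A call needed an adjusted P under 0.05 from limma on log2(RPM + 1) and a fold change over 1.5. The 40 genes had a median log2 difference of 0.62, and all genes one of -0.14. In 19 genes every Slc29a3-/- library lay above every WT library and in 2 every one lay below, where 11.9% and 21.8% of all genes did so. With libraries scaled by trimmed means, all-gene calls went from 861 higher and 1507 lower to 1202 and 1127, the all-gene median moved to -0.01, and 19 repair genes were higher and 1 lower. In bulk RNA, more cells of a kind and more RNA per cell cannot be told apart. Nothing in the labels says that replicates came from separate mice, so P values measure the spread between these samples.

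**Figure D1:**
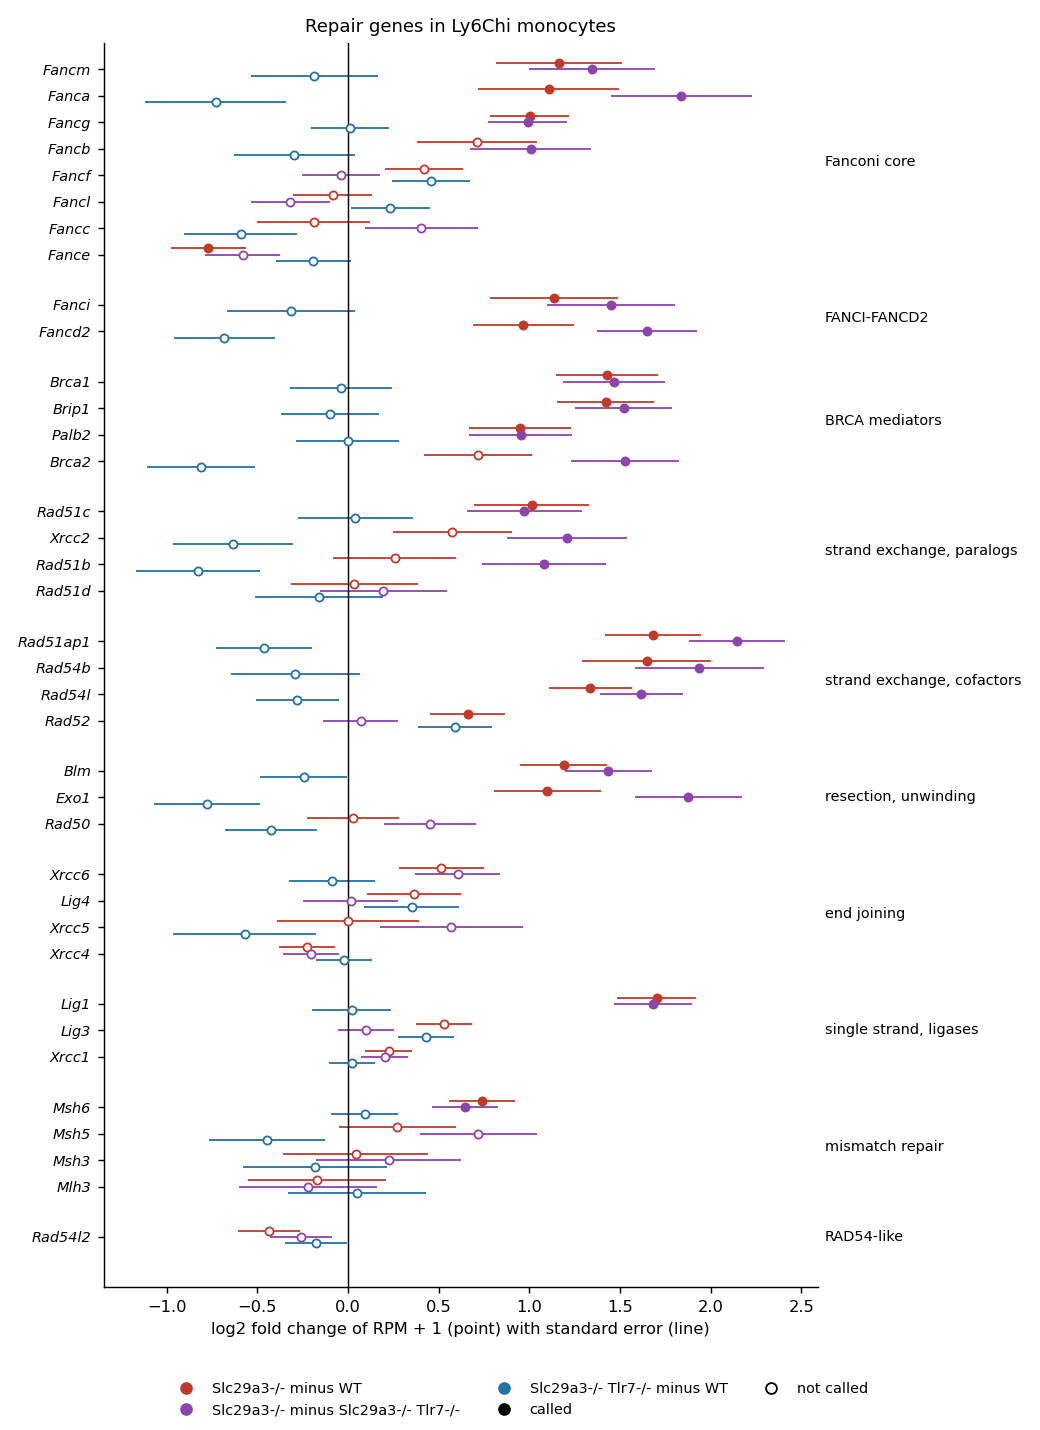
Log2 fold change of RPM + 1 (points) with its standard error (lines) for 37 repair genes tested in Ly6Chi monocytes, ordered by role, for 3 comparisons of genotypes with *n* = 4 libraries each. Filled points were called. Of the Slc29a3-/- minus WT points 17 were called higher and 1 lower, of the Slc29a3-/- minus Slc29a3-/- Tlr7-/- points 20 were called higher, and none of the Slc29a3-/- Tlr7-/- minus WT points was called.

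Cofactors of strand exchange carried several of the largest differences of the set. Rad54l (chr4:116094261-116123700), the motor that drives strand exchange, read 19.978, 16.8, 21.007 and 16.8 RPM in WT libraries, 32.5, 40.008, 53.9 and 77.9 RPM in Slc29a3-/- libraries and 13.6, 15.4, 13.1 and 18.8 RPM in Slc29a3-/- Tlr7-/- libraries. Every Slc29a3-/- library lay above all 8 others. The difference from WT was 1.34 ± 0.23 on the log2 scale (± SE), a 2.53-fold change with adjusted P = 0.0011. Rad51ap1 (chr6:126923415-126939621), whose product stimulates strand exchange, read 5.27, 2.98, 3.64 and 3.74 RPM in WT libraries, 15.046, 10.1, 15.2 and 19.1 RPM in Slc29a3-/- libraries and 4.62, 2.19, 1.66 and 2.17 RPM in Slc29a3-/- Tlr7-/- libraries. It rose 3.21-fold over WT, with adjusted P = 0.0007, and the highest other library was at 5.27 RPM. Rad54b (chr4:11558920-11615808), a second motor of the RAD54 family, read 5.69, 4.72, 3.29 and 3.04 RPM in WT libraries, 12.3, 13.4, 16.3 and 18.3 RPM in Slc29a3-/- libraries and 6.16, 1.22, 1.66 and 6.01 RPM in Slc29a3-/- Tlr7-/- libraries. The difference from WT was 1.65 ± 0.36 (adjusted P = 0.00419), and the groups did not overlap.

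Rad52 and the paralog genes Rad51c, Xrcc2, Rad51b and Rad51d, which assist filament assembly, were less uniform. Rad52 (chr6:119901722-119922827), the annealing factor, read 8.12, 11.1, 8.89 and 13.962 RPM in WT libraries, 14.7, 16.6, 16.968 and 19.5 RPM in Slc29a3-/- libraries and 16.3, 16.8, 20.4 and 11.7 RPM in Slc29a3-/- Tlr7-/- libraries. WT lay below Slc29a3-/- without overlap, and 3 of 4 Slc29a3-/- Tlr7-/- libraries were also above WT, with a difference of 0.66 ± 0.21 from WT in Slc29a3-/- (adjusted P = 0.0275) and of 0.59 ± 0.21 in Slc29a3-/- Tlr7-/- (adjusted P = 0.12). Rad51c (chr11:87376645-87404954) read 5.34, 8.26, 5.11 and 6.24 RPM in WT libraries, 14.6, 14.7, 12.5 and 11.992 RPM in Slc29a3-/- libraries and 6.47, 2.92, 5.46 and 14.3 RPM in Slc29a3-/- Tlr7-/- libraries. Its difference from WT was 1.01 ± 0.32 (adjusted P = 0.028), while the Slc29a3-/- Tlr7-/- libraries ranged from 2.92 to 14.3 RPM. Xrcc2 (chr5:25689814-25705797) read 5.06, 6.11, 9.45 and 4.29 RPM in WT libraries, 10.8, 7.12, 9.04 and 11.2 RPM in Slc29a3-/- libraries and 3.62, 1.300, 3.802 and 7.06 RPM in Slc29a3-/- Tlr7-/- libraries. Its Slc29a3-/- values overlapped WT (log2 difference 0.58 ± 0.33, adjusted P = 0.211) and lay above all Slc29a3-/- Tlr7-/- values. The paralogs Rad51b and Rad51d had differences from WT of 0.26 ± 0.34 and 0.03 ± 0.35, and neither was called. All 4 tested cofactors, Rad54l, Rad54b, Rad51ap1 and Rad52, were called higher than WT. Rad51ap2 had reads in 1 of 24 libraries, at 0.14 RPM, which is below 3 reads. Rad54l2, a helicase that resembles RAD54 and acts outside this pathway, averaged 34.8 ± 4.66 RPM (SD, *n* = 4) across WT libraries and 25.6 ± 4.62 RPM across Slc29a3-/- libraries and was not called (adjusted P = 0.0697).

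**Figure D2:**
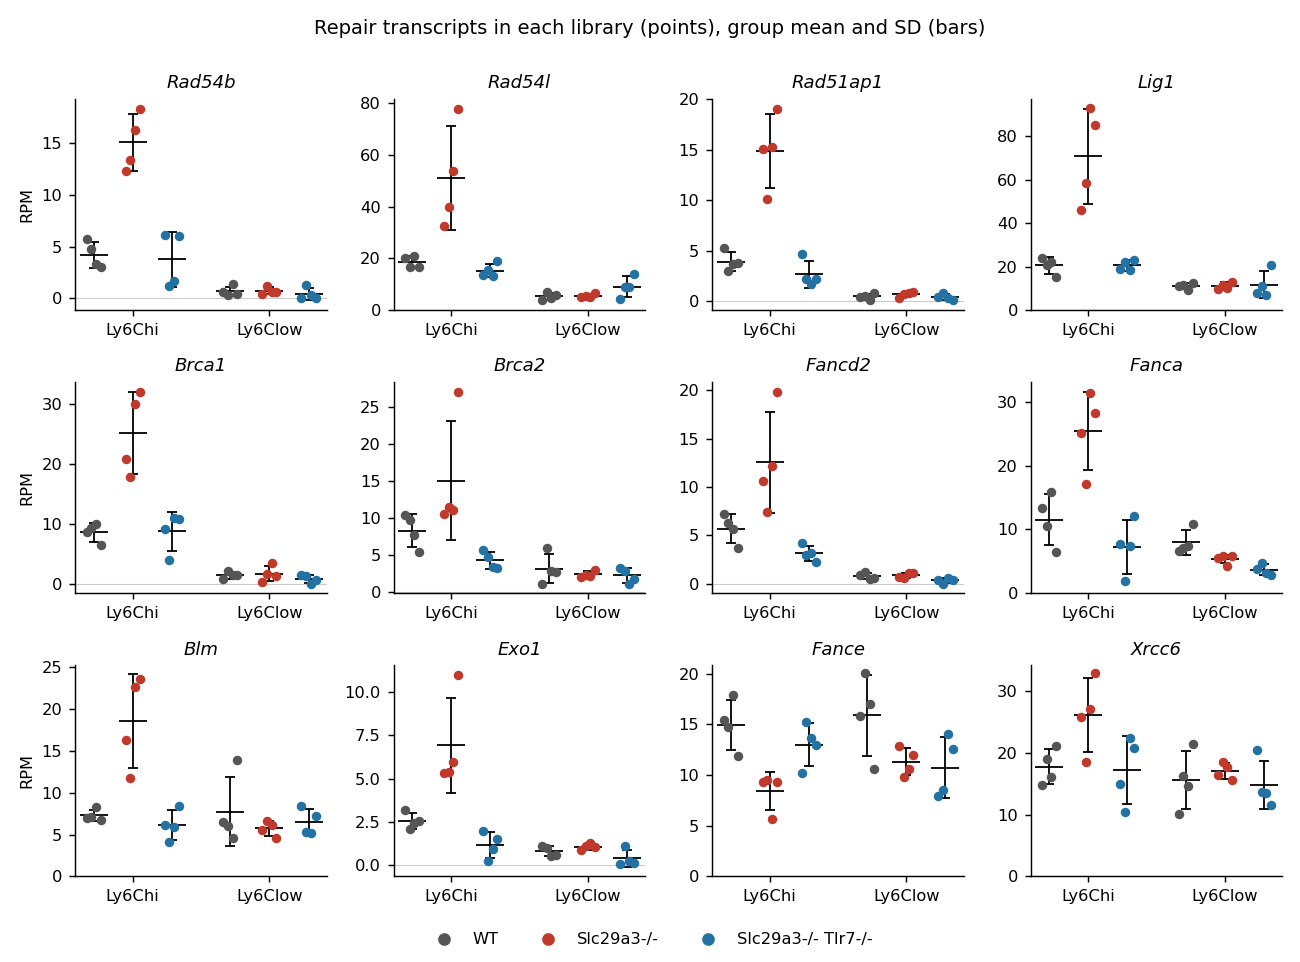
RPM of 12 repair genes in each of the 24 libraries (points), with the mean and SD of each group (bars, *n* = 4), by monocyte subset on the horizontal axis and genotype by colour. In Ly6Chi monocytes the 4 Slc29a3-/- libraries of Rad54l lay between 32.5 and 77.9 RPM and those of Fance between 5.63 and 9.57 RPM, while the Ly6Clow groups of the 2 genes overlapped.

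Among the BRCA mediators, 3 of 4 were called higher than WT. Brca1 (chr11:101488761-101551955), which promotes resection and recruits PALB2, read 8.602, 9.23, 9.94 and 6.396 RPM in WT libraries, 20.9, 17.7, 29.9 and 31.9 RPM in Slc29a3-/- libraries and 9.16, 3.98, 10.9 and 10.7 RPM in Slc29a3-/- Tlr7-/- libraries. The Slc29a3-/- libraries stood clear of the rest, 2.69-fold above WT (adjusted P = 0.00249). Brip1 (chr11:86058136-86201215), the helicase FANCJ that binds BRCA1, read 8.39, 11.2, 10.2 and 7.64 RPM in WT libraries, 19.4, 24.1, 30.4 and 34.5 RPM in Slc29a3-/- libraries and 10.1, 4.305, 10.8 and 11.1 RPM in Slc29a3-/- Tlr7-/- libraries. It too separated without overlap, with a difference of 1.42 ± 0.27 from WT (adjusted P = 0.00188). Palb2 (chr7:122107262-122132980), the bridge from BRCA1 to BRCA2, read 1.73, 2.85, 2.31 and 2.65 RPM in WT libraries, 4.86, 4.03, 7.06 and 6.43 RPM in Slc29a3-/- libraries and 2.23, 4.79, 2.06 and 1.203 RPM in Slc29a3-/- Tlr7-/- libraries. The Slc29a3-/- libraries lay above WT, though Slc29a3-/- Tlr7-/- replicate 2 reached into their range, and the difference from WT was 0.95 ± 0.28 (adjusted P = 0.0225). Brca2 (chr5:150522297-150570147), which acts after PALB2, read 10.4, 9.71, 7.63 and 5.38 RPM in WT libraries, 10.6, 11.5, 11.021 and 27.1 RPM in Slc29a3-/- libraries and 5.699, 4.71, 3.33 and 3.29 RPM in Slc29a3-/- Tlr7-/- libraries. All 4 Slc29a3-/- values were above all WT values, but replicates 1 to 3 were close to the highest WT library and replicate 4 far above it, and the difference of 0.72 ± 0.30 was not called (adjusted P = 0.0852).

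Both subunits of the FANCI-FANCD2 pair, the ubiquitinated clamp of the pathway, were called higher. Fanci (chr7:79392312-79450266) read 10.8, 7.91, 6.44 and 5.15 RPM in WT libraries, 15.1, 10.1, 18.6 and 30.8 RPM in Slc29a3-/- libraries and 5.699, 3.33, 4.51 and 11.5 RPM in Slc29a3-/- Tlr7-/- libraries. Slc29a3-/- replicate 2, the lowest of its group, lay below WT replicate 1, and the difference from WT was 1.13 ± 0.35 (adjusted P = 0.0271). Fancd2 (chr6:113531640-113597020) read 7.21, 6.25, 5.67 and 3.67 RPM in WT libraries, 10.7, 7.43, 12.2 and 19.9 RPM in Slc29a3-/- libraries and 4.16, 3.005, 3.17 and 2.25 RPM in Slc29a3-/- Tlr7-/- libraries. Every Slc29a3-/- library was above WT, by a difference of 0.97 ± 0.28 (adjusted P = 0.0182), and every Slc29a3-/- Tlr7-/- library but 1 was below the lowest WT library. Fancd2os, a gene on the opposite strand that overlaps the end of Fancd2, had reads in 1 of 24 libraries, at 0.557 RPM.

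The core complex was mixed, with 3 of 8 genes called higher and 1 lower. Fanca (chr8:123266294-123318651) read 13.4, 10.5, 15.9 and 6.47 RPM in WT libraries, 25.1, 17.2, 31.4 and 28.4 RPM in Slc29a3-/- libraries and 7.702, 1.87, 7.45 and 12.1 RPM in Slc29a3-/- Tlr7-/- libraries. Fancg (chr4:43002337-43010567), which holds the core together with FANCA, read 9.85, 8.26, 10.4 and 6.55 RPM in WT libraries, 17.5, 17.9, 18.6 and 19.3 RPM in Slc29a3-/- libraries and 9.63, 13.1, 6.73 and 6.74 RPM in Slc29a3-/- Tlr7-/- libraries. Fancm (chr12:65074110-65131842), the motor that brings the core to DNA, read 4.72, 4.86, 5.25 and 2.89 RPM in WT libraries, 7.802, 10.3, 20.1 and 8.74 RPM in Slc29a3-/- libraries and 5.31, 1.38, 3.56 and 6.09 RPM in Slc29a3-/- Tlr7-/- libraries. In each of these 3 genes all Slc29a3-/- libraries were above all WT libraries, with log2 differences of 1.11 ± 0.39 for Fanca (adjusted P = 0.0459), 1.00 ± 0.22 for Fancg (adjusted P = 0.00416) and 1.16 ± 0.35 for Fancm (adjusted P = 0.0226). Fance (chr17:28313530-28326574), the subunit that binds FANCD2, read 15.4, 14.7, 17.9 and 11.9 RPM in WT libraries, 9.31, 9.57, 5.63 and 9.29 RPM in Slc29a3-/- libraries and 10.2, 15.3, 13.6 and 12.989 RPM in Slc29a3-/- Tlr7-/- libraries. It went the other way: all 4 Slc29a3-/- libraries lay below all 8 others, and the difference from WT was -0.77 ± 0.21 (adjusted P = 0.0131). Fancb (chrX:164980480-164997272), a partner of the ubiquitin ligase subunit, read 1.94, 2.36, 2.03 and 4.602 RPM in WT libraries, 5.33, 4.67, 2.696 and 8.101 RPM in Slc29a3-/- libraries and 3.004, 0.975, 3.09 and 1.28 RPM in Slc29a3-/- Tlr7-/- libraries. Its groups overlapped and the difference from WT was 0.71 ± 0.33 (adjusted P = 0.125). Fancl, the ubiquitin ligase subunit, had a difference of -0.08 ± 0.22, Fancc -0.19 ± 0.31 and Fancf 0.42 ± 0.22, none of them called.

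Of the end-processing enzymes, Blm and Exo1 were called higher and Rad50 was not. Blm (chr7:80454993-80535148), the helicase that dissolves joint molecules, read 7.01, 7.15, 8.26 and 6.79 RPM in WT libraries, 16.2, 11.7, 22.7 and 23.6 RPM in Slc29a3-/- libraries and 6.08, 4.14, 5.94 and 8.42 RPM in Slc29a3-/- Tlr7-/- libraries. Exo1 (chr1:175880768-175911396), the nuclease of long-range resection, read 3.19, 2.08, 2.45 and 2.57 RPM in WT libraries, 5.33, 5.38, 5.95 and 10.960 RPM in Slc29a3-/- libraries and 2.003, 0.244, 0.950 and 1.52 RPM in Slc29a3-/- Tlr7-/- libraries. Both separated from WT without overlap, Blm by 1.19 ± 0.24 (adjusted P = 0.0028) and Exo1 by 1.10 ± 0.29 (adjusted P = 0.0131). Rad50, the ATPase of the MRN complex that first binds a break, averaged 39.986 ± 0.727 RPM (SD, *n* = 4) across WT libraries and 42.2 ± 11.5 RPM across Slc29a3-/- libraries, a difference of 0.03 ± 0.25 (adjusted P = 0.947).

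Lig1 (chr7:13277175-13311426), the ligase that joins Okazaki fragments and completes excision repair, read 24.1, 20.5, 22.3 and 15.1 RPM in WT libraries, 46.3, 58.6, 92.9 and 85.5 RPM in Slc29a3-/- libraries and 18.8, 22.3, 18.3 and 23.3 RPM in Slc29a3-/- Tlr7-/- libraries. All 4 Slc29a3-/- libraries were at 46.3 RPM or more and no other library was above 24.1 RPM. It was 3.25-fold higher than WT, with the lowest adjusted P of the 40 tested genes in this comparison (0.000193). Xrcc1 and Lig3 were not called. Xrcc1 (chr7:24546699-24573438), the scaffold of single-strand break repair, read 39.5, 36.8, 40.7 and 35.8 RPM in WT libraries, 45.5, 38.7, 46.5 and 48.6 RPM in Slc29a3-/- libraries and 37.4, 43.2, 36.1 and 38.5 RPM in Slc29a3-/- Tlr7-/- libraries, with a difference from WT of 0.22 ± 0.13 (adjusted P = 0.211). Lig3, its ligase, averaged 23.5 ± 1.800 RPM across WT and 34.6 ± 6.27 RPM across Slc29a3-/- libraries. The Lig3 difference of 0.53 ± 0.15 had an adjusted P of 0.0204 and stayed under the 1.5-fold threshold, though all Slc29a3-/- libraries lay above all WT libraries. Lig3 was called higher with trimmed-mean (0.66, adjusted P = 0.00426) and median-of-ratios scaling (0.64, adjusted P = 0.00457).

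None of the 4 end-joining genes was called by limma, at an unadjusted P under 0.05 for 1 of them. Xrcc6 (chr15:81987833-82040085), which encodes Ku70, read 14.8, 19.1, 16.1 and 21.1 RPM in WT libraries, 25.8, 18.6, 27.1 and 33.038 RPM in Slc29a3-/- libraries and 15.019, 10.5, 22.4 and 20.8 RPM in Slc29a3-/- Tlr7-/- libraries. Its Slc29a3-/- values overlapped WT, with a difference of 0.51 ± 0.24 (adjusted P = 0.119). Xrcc5 (chr1:72307417-72394953), which encodes Ku80, read 2.22, 2.29, 1.82 and 0.858 RPM in WT libraries, 1.91, 0.395, 2.696 and 2.700 RPM in Slc29a3-/- libraries and 1.31, 0.487, 0 and 2.33 RPM in Slc29a3-/- Tlr7-/- libraries, close to the lower limit of 1 RPM for a test. Xrcc4 and Lig4, the scaffold and ligase of the last step, had differences of -0.22 ± 0.15 and 0.36 ± 0.26.

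Of the 7 mismatch repair genes, 6 were tested and 1 was called. Msh6 (chr17:87975050-87990892), a mismatch sensor, read 9.92, 10.1, 9.59 and 10.998 RPM in WT libraries, 15.1, 13.995, 20.1 and 22.3 RPM in Slc29a3-/- libraries and 11.014, 9.504, 10.5 and 12.7 RPM in Slc29a3-/- Tlr7-/- libraries. Every Slc29a3-/- library was above all 8 others, and the difference from WT was 0.74 ± 0.18 (adjusted P = 0.00864). Msh3, Msh5 and Mlh3 had differences between -0.17 and 0.27 and were not called. Msh4, a meiotic gene, had no reads in any of the 24 libraries, which allows up to 0.206 to 0.244 RPM by counting error.

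The wider pathways were read from 90 other repair genes, of which 83 were among the amplicons and 81 were tested. Of these, 21 were called higher and 2 lower in Ly6Chi Slc29a3-/- than WT monocytes, where 8.15% and 14.3% of all genes were, with a median log2 difference of 0.27 (all genes -0.14). Checkpoint genes gave 5 higher of 14, led by Chek1, the replication checkpoint kinase, at 28.7 ± 6.90 RPM against 7.91 ± 1.64 RPM in WT. Other recombination genes gave 8 higher and 1 lower of 30, led by the resolvase Gen1 (log2 difference 1.67 ± 0.24), Fignl1 (1.56 ± 0.21), a regulator of recombination, and the polymerase gene Polq (1.498 ± 0.33). Other Fanconi genes gave 5 higher and 1 lower of 17, led by Uhrf1 (1.74 ± 0.22), a crosslink sensor and DNA methylation factor, Apitd1 (1.195 ± 0.24) and the E2 enzyme gene Ube2t (1.17 ± 0.29). End joining, single-strand repair and mismatch repair gave 1 higher gene each, of 8, 8 and 4 tested, among them Nhej1 in end joining and Pold1 in mismatch repair, so that 1 gene of 8 is close to the share among all genes. The other end-joining genes summed to less, at 168 to 192 RPM in Slc29a3-/- against 220 to 240 RPM in WT libraries, though none was called lower. Dclre1c was the largest part of this sum, at 80.7 ± 10.2 RPM in Slc29a3-/- and 118 ± 12.2 RPM in WT libraries.

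Genes of dividing cells and granulocyte genes differed between the same groups of libraries. All 18 proliferation genes of a separate list, such as replication and mitosis genes, were called higher in Ly6Chi Slc29a3-/- than WT monocytes. Their summed level was 2438 to 4184 RPM in Slc29a3-/-, 921 to 1484 RPM in WT and 760 to 1251 RPM in Slc29a3-/- Tlr7-/- libraries. Of 9 neutrophil genes, 7 were called higher and 2 lower, and their sum was 43884 to 83729 RPM in Slc29a3-/-, 14437 to 22043 RPM in WT and 6772 to 22244 RPM in Slc29a3-/- Tlr7-/-. Of 8 myeloid progenitor genes, 6 were called higher, with sums of 924 to 2972 RPM, 368 to 470 RPM and 389 to 966 RPM in the same order. Neutrophil and progenitor genes, the Ly6G gene among them, had reads in every Ly6Chi group although the gate took Ly6G- cells. T cell genes (4 of 4) and dendritic cell genes (7 of 7) were called lower, at sums of 4.36 to 13.8 RPM against 23.5 to 145 RPM and of 85.0 to 168 RPM against 225 to 343 RPM in WT. B cell genes were also lower without overlap, at sums of 14.5 to 20.8 RPM against 30.4 to 39.1 RPM in WT, and the 1 of them tested was called lower. Erythroid genes summed to at most 5.83 RPM in every Ly6Chi library. The part of these cells in the repair gene result was not tested.

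When WT replicate 4 stood alone for WT, 1 gene stayed called in Ly6Chi Slc29a3-/- against WT, Lig1, with the lone WT library assumed to vary like the other groups. All-gene calls fell in the same fit from 861 higher and 1507 lower to 129 and 27. All 18 genes kept a positive difference, 17 of them over 1.5-fold, between 0.26 for Rad52 and 2.10 for Lig1 on the log2 scale. Leaving out each of the 8 libraries in turn gave 12 to 17 genes higher and 1 lower, and 12 of the 19 calls held in every case. Among those were Brca1, Brip1, Blm, Exo1, Fancg, Fance, Lig1, Msh6, Rad54b, Rad54l and Rad51ap1. The call of Fanci was lost without any 1 of WT replicates 2, 3 or 4 or Slc29a3-/- replicates 3 or 4 (adjusted P up to 0.0925). That of Fanca was lost without WT replicates 1, 2 or 4 or Slc29a3-/- replicates 1, 3 or 4 (adjusted P up to 0.118). Fancm lost its call without WT replicate 4 or Slc29a3-/- replicate 3 (adjusted P up to 0.0784). Palb2 lost its own without WT replicates 1 or 3 or Slc29a3-/- replicates 3 or 4 (adjusted P up to 0.0729). For Rad51c the call went without WT replicates 1 or 3 or Slc29a3-/- replicates 1, 2 or 3 (adjusted P up to 0.0773). For Rad52 it went without WT replicates 1, 2 or 3 or Slc29a3-/- replicates 3 or 4 (adjusted P up to 0.0941). In these fits Fancd2 lost its call without Slc29a3-/- replicate 4 (adjusted P = 0.0588). With no filter on low values these 7 genes were not called either, and 11 were higher. Exo1, at 2.08 to 3.19 RPM in WT libraries, lost its call with a pseudocount of 0.1. So did Fanca, which also lost it when the prior variance did not follow the mean level.

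**Figure D3:**
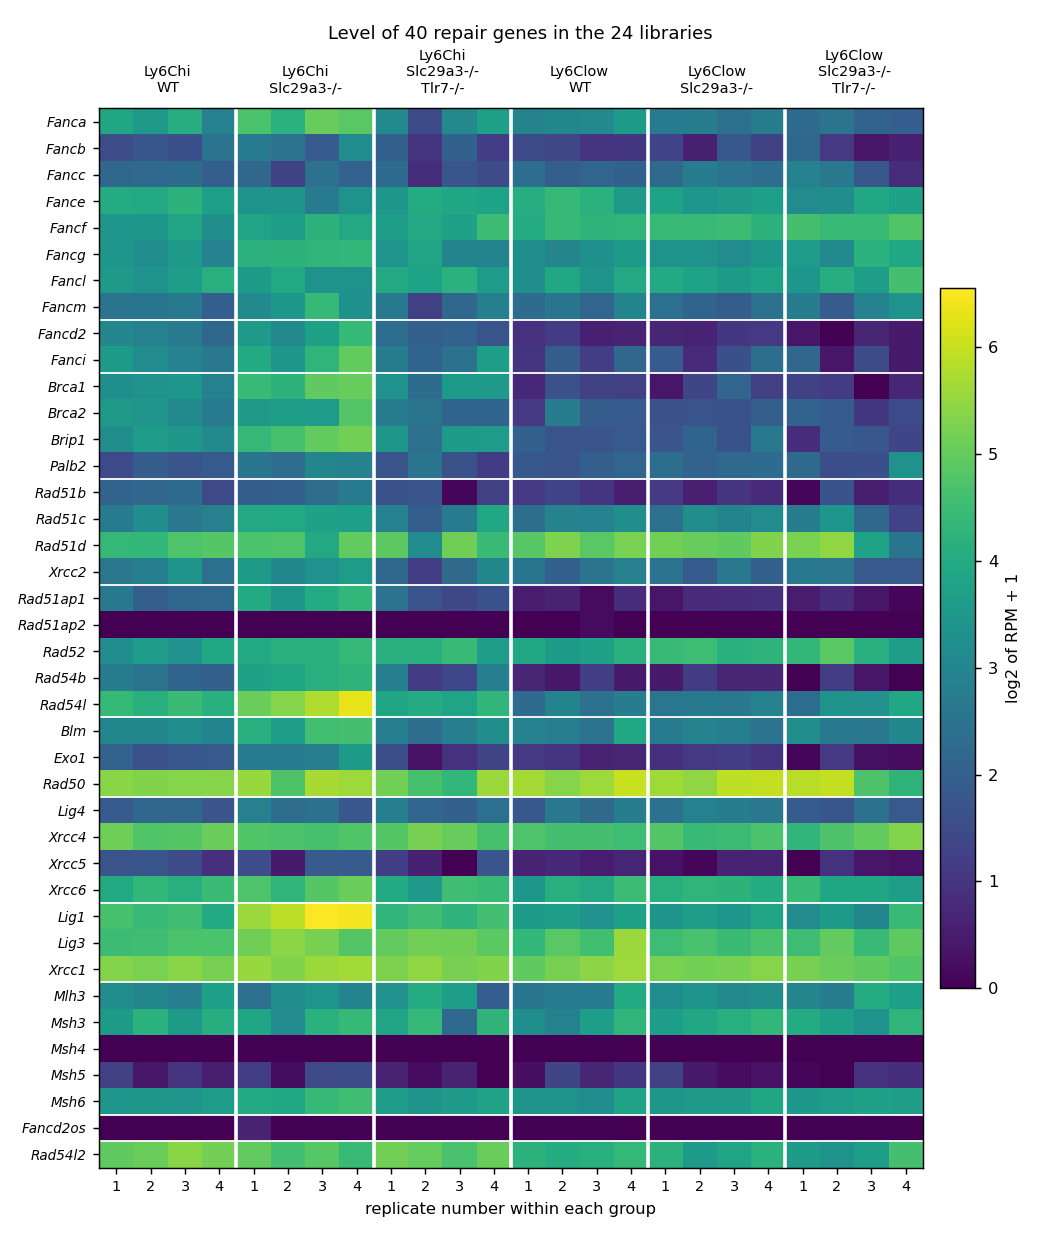
Level of 40 repair genes, as log2 of RPM + 1 (colour), in the 24 libraries (columns, by group and replicate number), with white lines between roles and between groups. Colours compare libraries within a row. The rows of Rad54l, Rad51ap1 and Lig1 are brightest in the 4 Ly6Chi Slc29a3-/- libraries, and Msh4 is at 0 throughout.

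Without Tlr7, none of these genes was called. In Ly6Chi Slc29a3-/- Tlr7-/- against WT monocytes, limma called 0 of 40 repair genes in either direction, against 0.312% higher and 1.11% lower of all genes. Those all-gene shares, 33 and 117 genes, turned on single libraries: they were 327 and 713 without WT replicate 4 (with 1 repair gene higher), 140 and 462 without Slc29a3-/- Tlr7-/- replicate 1, and at most 2 and 3 without any other library. At an unadjusted P under 0.05 there were 6 genes, and with the fold threshold 1 was higher (Rad52) and 4 were lower. The median was -0.18 for the repair genes and -0.06 for all genes. The largest differences were lower values: Rad51b at -0.83 ± 0.34 (adjusted P = 0.169), Brca2 at -0.81 ± 0.30 (adjusted P = 0.131) and Exo1 at -0.78 ± 0.29 (adjusted P = 0.139). Lig3 was the only gene above WT in every library and Exo1 the only one below it, where 5.45% and 6.32% of all genes did so. A P that misses the threshold does not show equal levels, and the standard errors of these 40 differences were between 0.13 and 0.40. Of the 81 other repair genes tested, 0 were called higher and 1 lower, close to the shares of all genes.

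Set directly against Slc29a3-/- Tlr7-/-, Ly6Chi Slc29a3-/- monocytes had 21 of 40 repair genes called higher and 0 lower (23 and 0 at an unadjusted P), where 9% and 8.22% of all genes were called. The median difference was 0.84 for the repair genes and -0.12 for all genes. Of these 21, 17 were also called higher than WT, with the Slc29a3-/- libraries shared by the 2 comparisons. Trimmed-mean scaling moved all-gene calls from 951 higher and 868 lower to 1106 and 595 and left the repair genes at 21 and 0. The largest differences were those of Rad51ap1 (2.15 ± 0.27, adjusted P = 0.000142), Rad54b (1.94 ± 0.36, adjusted P = 0.0018) and Exo1 (1.88 ± 0.29, adjusted P = 0.000618). Fanca (1.84 ± 0.39), Lig1 (1.68 ± 0.22), Fancd2 (1.65 ± 0.28) and Rad54l (1.62 ± 0.23) were also among the largest. The groups did not overlap for 17 genes higher and 1 lower, against 9.81% and 11.5% of all genes.

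The 4 genes called here and not against WT were Brca2, Fancb, Xrcc2 and Rad51b. Brca2 was 2.88-fold higher (adjusted P = 0.0025) and kept its call without each library in turn, the high replicate 4 included. Xrcc2 (1.21 ± 0.33, adjusted P = 0.0187) lost its call without Slc29a3-/- replicate 4 (adjusted P = 0.0616). Rad51b (1.08 ± 0.34, adjusted P = 0.0373) lost its call without Slc29a3-/- replicates 3 or 4 or Slc29a3-/- Tlr7-/- replicates 3 or 4 (adjusted P up to 0.124). Fancb, at 1.01 ± 0.33 (adjusted P = 0.045), was no longer called without Slc29a3-/- replicates 1, 2 or 4 or Slc29a3-/- Tlr7-/- replicates 2 or 4 (adjusted P up to 0.152). Rad52 alone of the 4 tested cofactors was not called between the mutants (0.07 ± 0.21, adjusted P = 0.843). Fance was at a difference of -0.58 ± 0.21 (adjusted P = 0.0595) and was not called. The end-joining genes were again not called, with differences from -0.20 for Xrcc4 to 0.60 for Xrcc6 on the log2 scale (adjusted P = 0.0838). Without each library in turn, 15 to 21 genes were higher and 0 or 1 lower, and 15 of the 21 calls held throughout. Besides those 3, Palb2 was not called without Slc29a3-/- replicates 3 or 4 or Slc29a3-/- Tlr7-/- replicates 1, 3 or 4 (adjusted P up to 0.0853), Msh6 without Slc29a3-/- replicates 3 or 4 (up to 0.0711) and Rad51c without any 1 of 7 libraries (up to 0.0981). Of the other repair genes, 27 were higher and 2 lower of 81.

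In Ly6Clow monocytes no repair gene was called in Slc29a3-/- mice. Of the 43 genes, 35 were tested in Ly6Clow libraries. The other 8 were Fancd2, Rad51ap1, Rad54b, Xrcc5, Msh5, Msh4, Fancd2os and Rad51ap2, none above 1.58 RPM in any Ly6Clow library. For Slc29a3-/- against WT, limma called 0 genes in either direction (2 at an unadjusted P under 0.05), where 1.9% of all genes were called higher and 2.53% lower (196 and 261 genes, but 795 and 601 without WT replicate 4 and 89 to 114 and 103 to 127 without any other library). For Slc29a3-/- against Slc29a3-/- Tlr7-/- it also called 0 (4 at an unadjusted P under 0.05), where 1.22% and 0.708% were called (126 and 73 genes, and 44 to 323 and 45 to 110 without each library in turn). Between Slc29a3-/- and WT, Rad52 lay above without overlap and Fanca below, where 6.66% and 11% of all genes did so. Between Slc29a3-/- and Slc29a3-/- Tlr7-/-, 1 gene separated, on the lower side (all genes: 7.82% higher and 4.04% lower). The medians were 0.06 and 0.10 for the repair genes and 0.00 and 0.08 for all genes.

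Lig1 and Rad54l, which stood clear of WT in Ly6Chi Slc29a3-/- monocytes, overlapped between Slc29a3-/- and WT in the Ly6Clow subset. Lig1 read 10.8, 11.7, 8.99 and 12.5 RPM in WT libraries, 9.46, 11.6, 9.94 and 13.1 RPM in Slc29a3-/- libraries and 7.995, 10.9, 7.02 and 20.9 RPM in Slc29a3-/- Tlr7-/- Ly6Clow libraries. Rad54l read 3.91, 6.79, 4.57 and 5.82 RPM in WT libraries, 4.93, 5.28, 5.21 and 6.43 RPM in Slc29a3-/- libraries and 4.199, 9.05, 8.92 and 13.9 RPM in Slc29a3-/- Tlr7-/- Ly6Clow libraries. In neither gene did the Slc29a3-/- libraries stand apart from WT, with differences of 0.00 ± 0.28 and 0.06 ± 0.28. Ly6Clow Brca1 averaged 1.39 ± 0.555 RPM (SD, *n* = 4) across WT, 1.67 ± 1.28 across Slc29a3-/- and 0.821 ± 0.644 across Slc29a3-/- Tlr7-/- libraries. Rad52 had a difference of 0.51 ± 0.24 between Slc29a3-/- and WT (adjusted P = 0.254), from a mean of 13.5 ± 2.59 to 19.5 ± 2.35 RPM.

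In Ly6Clow Slc29a3-/- Tlr7-/- against WT, 1 of 35 genes was called, Fanca, which was lower (all genes: 2.28% higher and 6.03% lower). Fanca read 6.57, 7.07, 7.45 and 10.9 RPM in WT libraries, 5.49, 5.84, 4.34 and 5.800 RPM in Slc29a3-/- libraries and 3.88, 4.76, 3.24 and 2.88 RPM in Slc29a3-/- Tlr7-/- Ly6Clow libraries. All 8 mutant libraries lay below all WT libraries, and the mutants overlapped in 1 library of each. The Fanca difference from WT in Slc29a3-/- Tlr7-/- was -0.93 ± 0.22 (adjusted P = 0.0243), and the call was lost without WT replicates 1, 2 or 3 or Slc29a3-/- Tlr7-/- replicate 3 (adjusted P up to 0.0745). Marker genes of other cells were lower in the same mutants: 6 of 7 tested neutrophil genes were called lower in Slc29a3-/- Tlr7-/- and 2 of 7 in Slc29a3-/-. The neutrophil sums were 41.2 to 1354 RPM in WT, 25.4 to 107 RPM in Slc29a3-/- and 4.845 to 47.5 RPM in Slc29a3-/- Tlr7-/- libraries. Of the WT libraries, replicate 4 had the 41.2 RPM, inside the range of the mutants. The Ly6Chi monocyte markers summed to 89.7 to 267 RPM, 39.7 to 88.2 RPM and 13.6 to 148 RPM in the same order, and the part of these cells in the Fanca result was not tested. Fancf was the only gene whose Slc29a3-/- Tlr7-/- libraries all lay above WT, where 3.01% of all genes did so and 9.29% lay below. All-gene calls, 235 higher and 622 lower, were 378 and 512 with trimmed-mean scaling, 18 and 31 with only these 2 groups in the fit, 875 and 905 without WT replicate 4, 28 to 53 and 72 to 127 without another WT library, and 60 to 353 and 242 to 1078 without 1 Slc29a3-/- Tlr7-/- library. Of the other repair genes, Bard1, the obligate partner of BRCA1, was called higher in Ly6Clow Slc29a3-/- monocytes, at 68.4 ± 5.31 RPM against 22.1 ± 2.90 RPM in WT and 31.3 ± 3.68 RPM in Slc29a3-/- Tlr7-/-, with log2 differences of 1.59 ± 0.15 and 1.10 ± 0.15. Bard1 alone of the 78 other repair genes tested was called in either comparison of Slc29a3-/-. Brca1 itself had a difference of 0.06 ± 0.37 from WT in Slc29a3-/- (adjusted P = 0.951). For Slc29a3-/- Tlr7-/- against WT, 0 of the 78 were called higher and 2 lower, where 2.28% and 6.03% of all genes were. The summed proliferation genes were 369 to 407 RPM in Ly6Clow Slc29a3-/- and 341 to 447 RPM in WT, and erythroid genes were higher in Ly6Clow Slc29a3-/- (3 of 4 tested called, sums of 80.9 to 104 RPM against 2.74 to 9.35 RPM); their part in the Bard1 result was not tested.

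An interaction term over all 24 libraries tested if the genotype effect was unequal in the subsets. The Slc29a3-/- minus WT difference was larger in Ly6Chi than in Ly6Clow for 7 of 40 genes and smaller for 0, where 4.11% and 4.65% of 11042 genes were called. They included Lig1 (1.70 ± 0.36, adjusted P = 0.00342), Rad54b, Fanca, Rad51ap1, Blm and Rad54l, with log2 interactions of 1.28 to 1.70. A block on the replicate number, set in every genotype although a pairing of the subsets was not shown, gave 6 called genes. Lig1, Rad51ap1, Blm, Rad54l and also Fancm (adjusted P = 0.0428) were among them, while Rad54b (adjusted P = 0.0865) and Fanca (adjusted P = 0.0715) were not. Without each of the 16 libraries in turn, 3 of the 7 calls held throughout, those of Lig1, Rad51ap1 and Blm. Rad54b lost its call in 10 of the 16 fits (adjusted P up to 0.0869), Fanca in 9 (up to 0.0707) and Rad54l in 8 (up to 0.0893). For Slc29a3-/- minus Slc29a3-/- Tlr7-/-, 10 genes had a larger difference in Ly6Chi and 0 a smaller one, where 4.53% and 4.41% of all genes were called. Rad54l was first (2.16 ± 0.37, adjusted P = 0.000941), followed by Rad51ap1 (1.87 ± 0.34, adjusted P = 0.0014) and Fancm (1.84 ± 0.47, adjusted P = 0.0161). Lig1, Blm, Rad54b, Brca2, Fancg, Exo1 and Fancd2 made up the rest, with 1.17 to 1.65. Without each of 16 libraries in turn, 6 of the 10 calls held throughout, and Brca2 lost its call in 12 fits (adjusted P up to 0.134), Fancd2 in 11 (up to 0.11), Rad54b in 9 (up to 0.0949) and Exo1 in 8 (up to 0.0979). Brca1 and Brip1, called in both Ly6Chi comparisons, were not called here (interaction with WT 1.36 ± 0.48, adjusted P = 0.0792, and 1.20 ± 0.40, adjusted P = 0.0592). Against WT, trimmed-mean scaling gave a call for Brca1 (1.53, adjusted P = 0.0452) and Brip1 (1.37, adjusted P = 0.029). Median-of-ratios scaling did so for Brip1 (adjusted P = 0.0319) but not Brca1. Whether a subset difference was called for them thus turned on the scaling. The 7 calls against WT became 12 with trimmed-mean scaling, 3 with no filter, 2 with a pseudocount of 0.1, 14 by an unadjusted P, and 0 with WT replicate 4 standing alone for WT, where all 7 differences stayed positive.

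Some repair genes were higher in Ly6Chi than in Ly6Clow monocytes in each genotype, in Slc29a3-/- Tlr7-/- mice at a share close to that of all genes. Ly6Chi monocytes were higher than Ly6Clow in 13 of 40 genes in WT, in 21 in Slc29a3-/- and in 10 in Slc29a3-/- Tlr7-/- mice, against 17.5%, 16.5% and 18.7% of all genes. They were lower in 1, 0 and 1 gene, against 8.46%, 18.5% and 9.64%; the 1 gene was Fancf, a core complex subunit. Groups did not overlap for 15 higher and 2 lower genes in WT, 23 and 1 in Slc29a3-/-, and 8 and 1 in Slc29a3-/- Tlr7-/-, where the shares of all genes were 20.1% and 13.7%, 21.4% and 27.3%, and 15.5% and 9.21%. When WT replicate 4 stood alone for WT, 0 repair genes were called in WT, and all-gene calls fell from 1929 higher and 934 lower to 350 and 296.

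**Figure D4:**
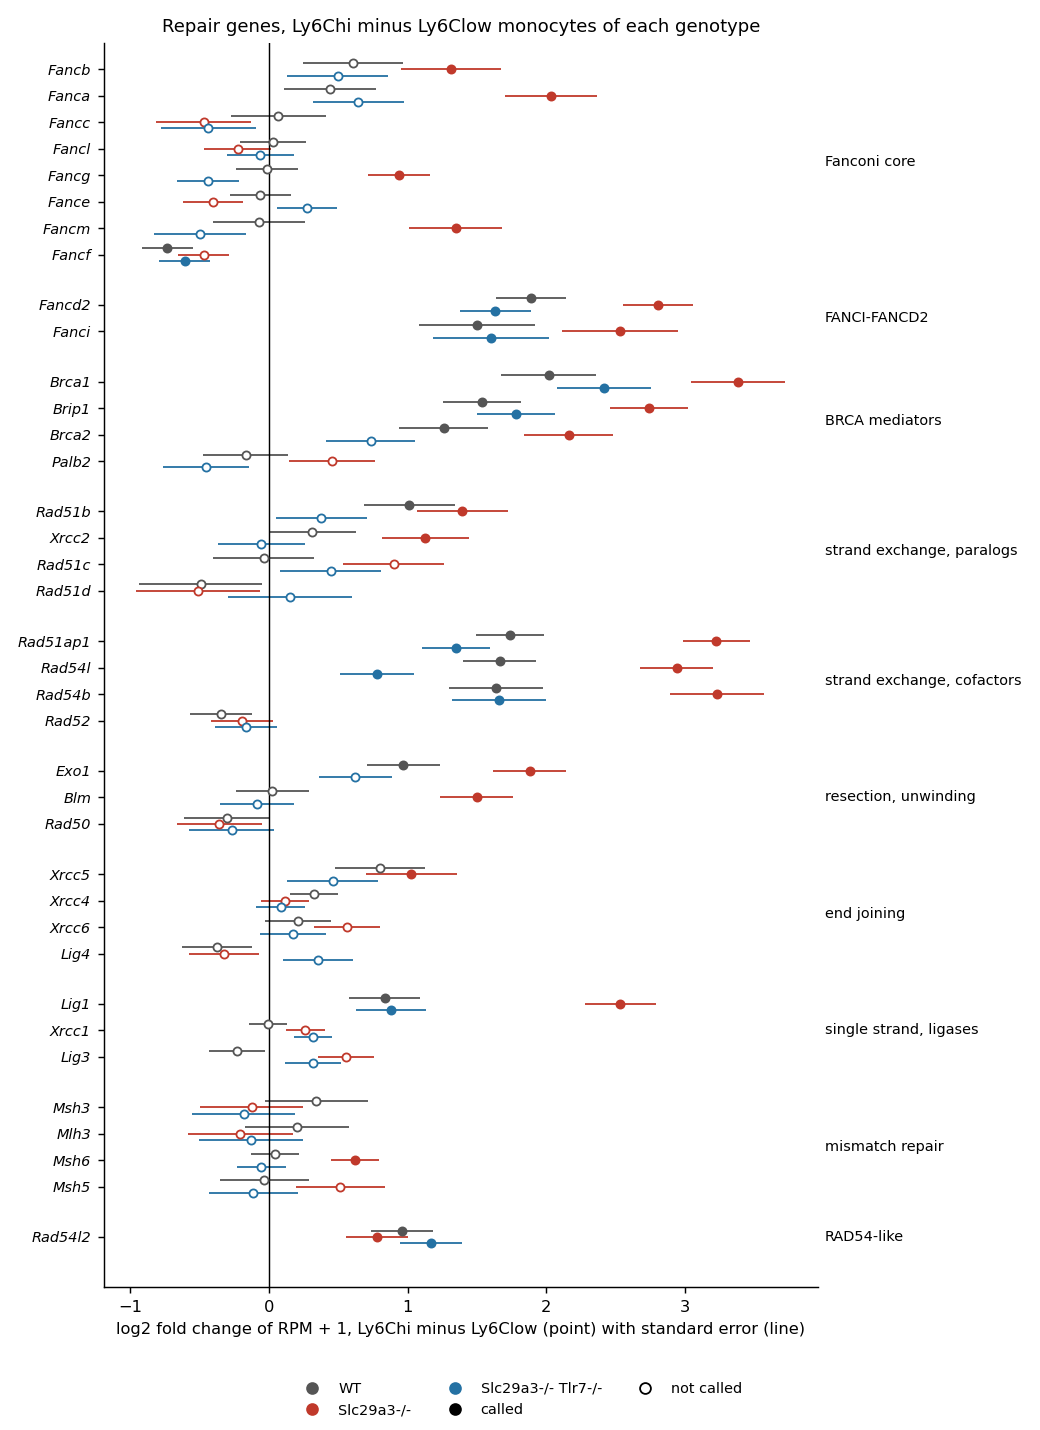
Log2 fold change of RPM + 1 between Ly6Chi and Ly6Clow monocytes (points) with its standard error (lines) for 37 repair genes ordered by role, in the 3 genotypes (*n* = 4 libraries per group). Filled points were called. Brca1 was at 2.02, 3.38 and 2.41, and Fancf at -0.73, -0.47 and -0.61 in the 3 genotypes.

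Genes of the BRCA mediators and of the FANCI-FANCD2 pair were among those with the largest differences between the subsets. Brca1 was higher in Ly6Chi by 2.02 ± 0.34 in WT, 3.38 ± 0.34 in Slc29a3-/- and 2.41 ± 0.34 in Slc29a3-/- Tlr7-/- on the log2 scale. Fancd2, which in Ly6Clow libraries was at 1.24 RPM or less, was higher by 1.89 ± 0.25, 2.81 ± 0.25 and 1.63 ± 0.25. Rad51ap1, Rad54b, Rad54l, Brip1, Fanci, Lig1 and Rad54l2 were also called in all 3 genotypes. The Rad54l call in Slc29a3-/- Tlr7-/- mice was lost with trimmed-mean (adjusted P = 0.0676) and median-of-ratios scaling (0.0658), with no filter (0.0503), without Ly6Chi replicate 4 (0.077) and without Ly6Clow replicate 1 (0.121). Brca2, Exo1 and Rad51b were called in WT and Slc29a3-/- mice. Blm, Fanca, Fancb, Fancg, Fancm, Msh6, Xrcc2 and Xrcc5 were called in Slc29a3-/- mice alone, and of these only Blm and Fanca were among the interactions with WT as reported. Fancg (adjusted P = 0.0295 and 0.0275) and Fancm (0.0336 and 0.0343) joined them with trimmed-mean and median-of-ratios scaling. Fancg, for example, read 8.67, 6.93, 8.85 and 10.959 RPM in WT libraries, 9.06, 9.28, 7.97 and 10.2 RPM in Slc29a3-/- libraries and 11.3, 7.78, 17.3 and 14.3 RPM in Slc29a3-/- Tlr7-/- Ly6Clow libraries. Its Ly6Chi Slc29a3-/- libraries lay above all Ly6Clow ones of the same genotype (0.94 ± 0.22, adjusted P = 0.00141), and in WT mice the subsets overlapped (-0.01 ± 0.22, adjusted P = 0.974). The other repair genes gave 17 higher and 2 lower of 81 in WT, 26 and 7 in Slc29a3-/-, and 10 and 6 in Slc29a3-/- Tlr7-/- mice, where the shares of all genes were 17.5% and 8.46%, 16.5% and 18.5%, and 18.7% and 9.64%. The 17 of 81 in WT were thus close to the share of all genes and the 10 of 81 in Slc29a3-/- Tlr7-/- mice below it. Proliferation genes were higher in Ly6Chi for 17 of 18 in WT, 18 in Slc29a3-/- and 14 in Slc29a3-/- Tlr7-/- mice, and neutrophil genes for 8, 9 and 9 of 9, whose part in the subset difference was not tested.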

How the data were processed

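Sorted splenic monocytes of 24 samples were profiled with an Ion AmpliSeq Transcriptome Mouse panel, in which 1 amplicon per gene is amplified from about the same amount of RNA and read on an Ion Proton sequencer. The deposited table holds RPM values, made by the authors from amplicon reads mapped to mm10; which of the pipelines named in the methods (the AmpliSeqRNA plug-in, or Cutadapt, STAR, HTSeq and DESeq2 in ROSALIND) wrote this table is not given in the sources used here. The value 0.0001 stood for 0 reads and was set to 0. Steps of the low values gave the depth in the report, to a tolerance of 0.1 reads. Values under 5 RPM were whole multiples of the step in 100% of cases in every library. Higher values were not checked for whole reads, and no count test was run. Of the symbols, 27 had been turned into dates, none of them a repair gene studied here.

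Values were tested as log2(RPM + 1) with limma 3.58.1 in R 4.3.3, letting the prior variance follow the mean level, on genes with at least 1 RPM in 4 libraries. Genotypes were compared within a subset over its 12 libraries, and interactions and subsets over all 24. P values were adjusted by Benjamini-Hochberg over all genes tested, and a call needed an adjusted P under 0.05 and a fold change over 1.5. Fold changes on this scale understate the change of low genes. The fits were tested on simulated data. Promoters were read with Python 3.11.15 and pandas 2.3.3.

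Groups came from the sample labels. No pair of libraries was identical (highest correlation 0.9949). Same-numbered Ly6Chi and Ly6Clow WT libraries deviated together (correlations of 0.259 to 0.619 in 4 of 4 pairs). Libraries of unlike number were not compared, and WT replicate 4 stood apart in both subsets. These correlations therefore cannot tell whether the numbers pair the samples. In Slc29a3-/- (-0.081 to 0.255) and Slc29a3-/- Tlr7-/- mice (-0.456 to 0.338) same-numbered libraries of the subsets did not deviate together in every pair, nor did those of unlike genotypes.

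The repair genes, the other repair gene lists and the cell type lists were chosen with earlier results of these data known. Values in each library are given for most of a set list of 17 genes and for every other repair gene called in a Ly6Chi comparison of Slc29a3-/- with a group mean of at least 5 RPM. Of each list of other repair genes, up to 3 called genes with the largest changes were named, and Bard1 was added after its values were seen. Alternatives were trimmed-mean and median-of-ratios scaling, other filters and pseudocount, no trend, an unadjusted P, other sets of libraries, a replicate block, leaving out each library, and WT replicate 4 alone. Some genes that entered the fits and counts are not reported here.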

Additional observations from a re-analysis of the deposited data

Results flagged for a closer look

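Outlying libraries were looked for in 27 repair genes: the set list, and the other genes called in a Ly6Chi comparison of Slc29a3-/- with a group mean of at least 5 RPM. In 7 of their 162 groups of 4 libraries, 1 library lay farther from its nearest neighbour than Dixon's 95% limit allows. Chance flags about 1 in 20 groups. Slc29a3-/- replicate 4 of the Ly6Chi subset accounted for the high values of Brca2 (27.1 RPM, the others between 10.6 and 11.5 RPM) and Exo1 (10.96 RPM, the others between 5.33 and 5.95 RPM). In the same subset Slc29a3-/- replicate 3 was low in Fance, at 5.63 RPM, with the others between 9.29 and 9.57 RPM. Slc29a3-/- Tlr7-/- replicate 2 was low in Brip1, at 4.305 RPM. WT replicate 4 was high in Fancb, at 4.602 RPM, with the others between 1.94 and 2.36 RPM. In the Ly6Clow subset Slc29a3-/- replicate 4 was high in Msh6, at 13.7 RPM, and Slc29a3-/- Tlr7-/- replicate 2 in Exo1, at 1.11 RPM.

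The effect of genotype was larger in Ly6Chi than in Ly6Clow monocytes by the interaction term in 17 tests, of which 16 are given here. For Slc29a3-/- minus WT the log2 interactions were 1.70 for Lig1, 1.59 for Rad54b, 1.59 for Fanca, 1.49 for Rad51ap1, 1.47 for Blm and 1.28 for Rad54l. For Slc29a3-/- minus Slc29a3-/- Tlr7-/- they were 2.16 for Rad54l, 1.87 for Rad51ap1, 1.84 for Fancm, 1.65 for Lig1, 1.58 for Blm, 1.57 for Rad54b, 1.43 for Brca2, 1.38 for Fancg, 1.26 for Exo1 and 1.17 for Fancd2. Lig1, Rad51ap1, Blm, Rad54b and Rad54l were in both sets, which share the Slc29a3-/- libraries.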

How the results depend on the processing

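The direction of the repair gene calls did not turn under any alternative run. In Ly6Chi monocytes, Slc29a3-/- against WT gave 18 genes higher and 1 lower as reported, 11 higher with no filter on low values, 11 among genes with a mean of at least 10 RPM, where fewer genes were tested, and 1 higher and 0 lower when WT was replicate 4 alone, where fewer samples were. Slc29a3-/- Tlr7-/- against WT gave 1 higher and 4 lower by an unadjusted P in place of 0 and 0. Slc29a3-/- against Slc29a3-/- Tlr7-/- gave 10 higher among genes of at least 10 RPM in place of 21. In Ly6Clow monocytes, an unadjusted P gave 1 gene higher for Slc29a3-/- against WT, 3 higher for Slc29a3-/- against Slc29a3-/- Tlr7-/- and 2 lower for Slc29a3-/- Tlr7-/- against WT. The 1 lower gene of that last comparison, Fanca, became 0 with no filter, with a mean of at least 10 RPM, with only the 2 groups compared, with all 24 libraries and with WT replicate 4 alone. The interaction of subset with Slc29a3-/- against WT, 7 as reported, was 12 with trimmed-mean and 11 with median-of-ratios scaling, 3 with no filter, 4 at a mean of at least 10 RPM, 2 with a pseudocount of 0.1, 14 by an unadjusted P and 0 with WT replicate 4 alone. That with Slc29a3-/- against Slc29a3-/- Tlr7-/-, 10 as reported, was 6, 3 and 5 with no filter, a mean of at least 10 RPM and the pseudocount, and 17 higher and 1 lower by an unadjusted P. Between the subsets, a mean of at least 10 RPM left 4 genes higher in WT, 7 in Slc29a3-/- and 4 in Slc29a3-/- Tlr7-/- mice, and WT replicate 4 alone left 0 higher and 0 lower in WT. Beyond the smaller numbers of genes or samples tested, the cause of these changes was not tested. All-gene interaction calls moved with trimmed-mean scaling from 454 higher and 513 lower to 637 and 362 against WT, and from 500 and 487 to 697 and 270 against Slc29a3-/- Tlr7-/-.

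Leaving out each library in turn gave, in Ly6Chi monocytes, 12 to 17 genes higher and 1 lower for Slc29a3-/- against WT, 0 to 1 higher for Slc29a3-/- Tlr7-/- against WT (1 without WT replicate 4), and 15 to 21 higher and 0 to 1 lower for Slc29a3-/- against Slc29a3-/- Tlr7-/-. In Ly6Clow monocytes it gave 0 to 1 higher and 0 to 2 lower for Slc29a3-/- Tlr7-/- against WT, both highest without WT replicate 4. The interactions ranged from 3 to 9 against WT, lowest without Ly6Chi Slc29a3-/- replicate 4, and from 6 to 11 against Slc29a3-/- Tlr7-/-. Lower calls between the subsets in Slc29a3-/- Tlr7-/- mice ranged from 0 to 2.

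With the replicate number as a block, 18 genes were higher and 1 lower in Ly6Chi Slc29a3-/- against WT and 18 higher against Slc29a3-/- Tlr7-/-. Between the subsets of WT mice, 13 were higher and 1 lower in Ly6Chi with this block. The interactions were 6 against WT, without Rad54b and Fanca and with Fancm, and 9 against Slc29a3-/- Tlr7-/-, without Rad54b and Exo1. The block moved no count by more than 1.5 times. The count tests edgeR and DESeq2 were not run, since the table holds RPM. Whole reads were checked for values under 5 RPM only. With 4 libraries per group and 1 amplicon per gene, genes near 1 RPM rest on few reads, and 8 repair genes could not be tested in Ly6Clow monocytes at this depth.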
